A study of Mus musculus with 20 samples.

Results

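Nanos2, Nanos3, Dnd1, Elavl2, Dazl and Tex19.1, named regulators of germ cell fate that act on RNA or are grouped with genes that do, were read from the gene counts of Tex15 mutant mouse germ cells. The members are a list of 6 gene symbols. All 6 stood among the 23853 symbols common to the count tables of all 3 ages. They were listed by name and not by a cutoff on measured values, but with earlier results of these data known. RNA had been sequenced from male germ cells sorted by green fluorescence, which lacked Tex15 (Tex15-/-, knockout) or kept 1 copy of it (Tex15+/-, heterozygous), on a mixed strain background. Cells came from embryonic day 16.5 (e16.5), embryonic day 18.5 (e18.5) and postnatal day 2 (d2). Each genotype had 3 libraries at e16.5, another 3 at e18.5 and 4 at d2. All groups share the fluorescent reporter, whose driver is not named in the labels, and heterozygous cells, not wild-type cells, are the controls. The series text calls the replicates biological, without saying whether they were separate animals or pools, so p-values speak only of the spread among these libraries, which may be technical.

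In the fetal testis germ cells come to stop dividing and are kept from meiosis, while in the fetal ovary they enter meiosis. Much of this choice is made on messenger RNA. NANOS2 and NANOS3 are zinc finger proteins that bring the CCR4-NOT deadenylase to their targets, and DND1 is the RNA-binding partner through which NANOS2 reaches many of them. DAZL and ELAVL2 bind U-rich stretches of messenger RNA and act mainly on stability and translation. TEX19.1 is a mammal-specific germ cell and placental protein, best known for holding back retrotransposons and for its partner UBR2, and it has no classical RNA-binding domain. TEX15 is a germ cell protein needed for male fertility.

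Each library held 14.3 to 31.5 M counts (M, 1000 x 1000), of which 7.78 to 14.2 M lay in genes. Values are CPM, counts scaled to 1 M gene counts, with library sizes adjusted by TMM factors over all 20 libraries. Tex15, the gene removed, lay at 1.70 to 5.34 CPM in 9 of the 10 knockout libraries, against 612 to 2103 CPM in heterozygous ones. Knockout replicate 2 at d2 held 102 CPM from 799 counts, below every heterozygous library but far above the other knockout libraries. The d2 knockout to heterozygous changes of Tex15, Dazl and Elavl2 are therefore also given without it. Other d2 values include it, except where fits without 1 library are reported. Tex15 had a log2 fold change of -8.82 at e16.5 (adjusted p = 2.1e-10, edgeR), -8.96 at e18.5 (7.2e-11) and, with that library, -4.97 at d2 (0.167), against -8.45 (3.1e-14) without it. All 10 germ cell markers reached at least 1 CPM on average, as did 11 of 12 stroma, 10 of 12 Sertoli and 6 of 6 endothelial markers. Summed levels set them apart, with stroma sums of 240.2 to 523 CPM and Sertoli sums of 50.3 to 131 CPM, against germ cell sums of 3269 to 9750 CPM. In these bulk libraries fewer cells of a type and less RNA per cell cannot be told apart.

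Compared per length, Dazl was the most abundant of the 6 messages and Nanos3 or Nanos2 the least. Dazl averaged 234 CPM per kilobase of exon in knockout and 246 in heterozygous cells at e16.5. The values were 299 and 377 at e18.5, then 635 and 415 at d2. At d2 its level per length ranked 2 of 23193 genes in knockout cells and 7 in heterozygous cells. Tex19.1 came next and ranked 22 in knockout and 18 in heterozygous cells at d2, with 259 and 264 CPM per kilobase. Dazl stood above Tex19.1, and Tex19.1 above Elavl2, in 20 of 20 libraries.
Dnd1 and Elavl2 changed places with age. At e16.5 Elavl2 was above Dnd1 in 0 of 3 knockout and 1 of 3 heterozygous libraries, while it was above Dnd1 in every library of e18.5 and d2. Nanos2 and Nanos3 were the lowest pair, with group means of 0.370 to 7.98 CPM per kilobase. Nanos2 was above Nanos3 in all 12 embryonic libraries, and in 1 of 4 knockout and 0 of 4 heterozygous libraries at d2. Exon lengths came from GENCODE M21, which is on another build than the counts, and matched 97.2% of symbols.

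**Figure D1:**
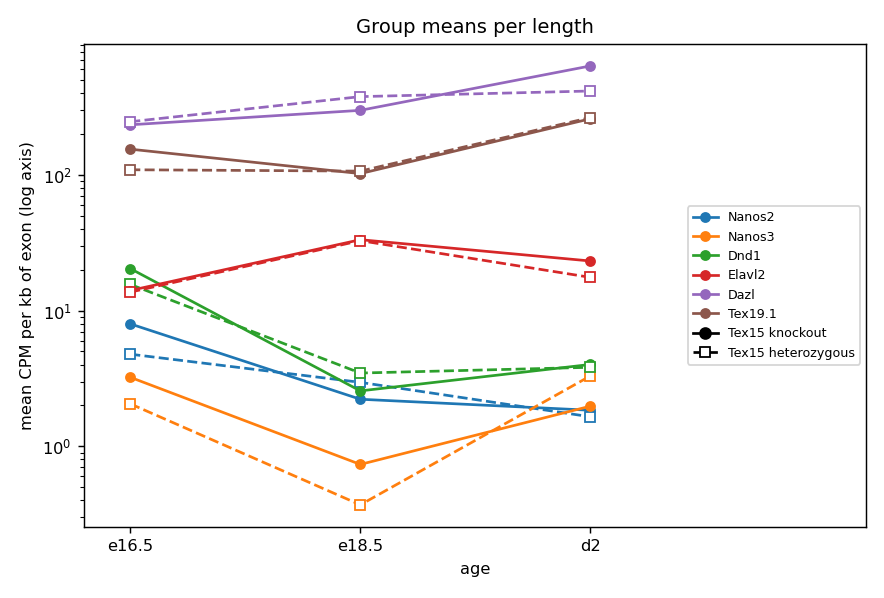
Group mean of each gene in CPM per kilobase of exon (log axis) at e16.5, e18.5 and d2, with filled circles and solid lines for Tex15 knockout and open squares and dashed lines for Tex15 heterozygous cells. Dazl lies highest throughout, reaching 635 CPM per kilobase in knockout and 415 in heterozygous cells at d2, and Dnd1 falls below Elavl2 after e16.5.

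The promoters of these genes differ in their content of CG, the dinucleotide that carries DNA methylation, which male germ cells rebuild over these ages. The Dnd1 promoter is not reported here. Methylation was not analysed here, and the 250 bases upstream of the start are shown to let the genes be compared. They are from RefSeq on GRCm38.p6, not the build of the counts, in the direction of the gene, 5′ to 3′, with each CG in capitals. Dazl is at chr17:50293621-50293870 (minus strand), Tex19.1 at chr11:121145893-121146142 (plus strand), Nanos2 at chr7:18987274-18987523 (plus strand) and Nanos3 at chr8:84176553-84176802 (minus strand).
Dazl: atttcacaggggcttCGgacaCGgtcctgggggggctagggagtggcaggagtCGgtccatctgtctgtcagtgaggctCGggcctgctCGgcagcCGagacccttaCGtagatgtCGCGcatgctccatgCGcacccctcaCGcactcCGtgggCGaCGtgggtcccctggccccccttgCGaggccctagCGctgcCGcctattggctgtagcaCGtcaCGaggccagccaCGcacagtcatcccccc
Tex19.1: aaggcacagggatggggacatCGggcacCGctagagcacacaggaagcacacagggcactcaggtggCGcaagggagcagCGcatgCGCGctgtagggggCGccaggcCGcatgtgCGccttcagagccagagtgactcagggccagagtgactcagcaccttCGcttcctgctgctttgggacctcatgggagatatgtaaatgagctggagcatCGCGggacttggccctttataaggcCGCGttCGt
Nanos2: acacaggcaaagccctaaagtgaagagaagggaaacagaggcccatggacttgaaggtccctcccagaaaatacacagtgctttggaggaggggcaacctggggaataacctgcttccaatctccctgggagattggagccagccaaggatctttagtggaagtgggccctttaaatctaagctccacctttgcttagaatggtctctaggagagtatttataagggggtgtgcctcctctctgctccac
Nanos3: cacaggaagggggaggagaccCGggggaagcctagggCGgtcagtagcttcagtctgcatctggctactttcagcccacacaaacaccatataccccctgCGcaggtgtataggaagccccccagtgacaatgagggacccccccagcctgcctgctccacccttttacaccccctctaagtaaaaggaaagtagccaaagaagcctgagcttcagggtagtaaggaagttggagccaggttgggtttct
The Dazl window holds 20 CG and the Tex19.1 window 15, against a median of 6 over 32851 RefSeq windows of the same length. At least as many were found in 17.9% of windows for Dazl and in 27.3% for Tex19.1. The Nanos3 window holds 3 CG, which 71.0% of windows equal or exceed, and the Nanos2 window holds none. The 6 annotated starts of Elavl2 have 10 to 21 CG.
Searched on both strands, the letters TATAAA were found on the opposite strand in Nanos2 and Tex19.1, where the printed sequence reads TTTATA from position -33 and -19 before the start. On either strand, 12.4% of all windows hold them. They are not in the Dazl, Nanos3 or Elavl2 windows. CACGTG (in 6.02% of windows) and TTCCCGC (in 3.82%) are in none of these windows. The motifs do not overlap one another where found, and a match is a string of letters only.

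The comparison of knockout with heterozygous cells asks what loss of Tex15 changes in these regulators at each age. Dazl alone passed the test, at d2, where it rose 1.52-fold. At e16.5 0 of 6 members were called (adjusted p under 0.05, edgeR quasi-likelihood test), where 0.0061% of all 16384 genes tested were called, and 2 of 6 had an unadjusted p under 0.05, where 7.73% of all genes did. At e18.5 0 of the 5 members that passed the filter on low counts were called, where 2.33% of all genes were, and 0 had an unadjusted p under 0.05 (11.3% of all genes). DESeq2 also called 0 at both embryonic ages. At d2 1 of 6 was called, where 2.8% of all genes were (2.03% higher in knockout cells), and 2 had an unadjusted p under 0.05 (16.2% of all genes).
The libraries of both genotypes did not overlap for 2 of 6 members at e16.5 (13.3% of all genes), Nanos2 and Tex19.1, both higher in knockout cells (7.18% of all genes). They did not overlap for 0 of 5 at e18.5 (16.8% of all genes) and for 1 of 6 at d2 (9.73% of all genes), Elavl2, again higher in knockout cells (5.42% of all genes). The median log2 fold change of the members tested was 0.42 at e16.5 (all genes -0.01), then -0.34 at e18.5 (all genes -0.01) and 0.11 at d2 (all genes -0.02).

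**Figure D2:**
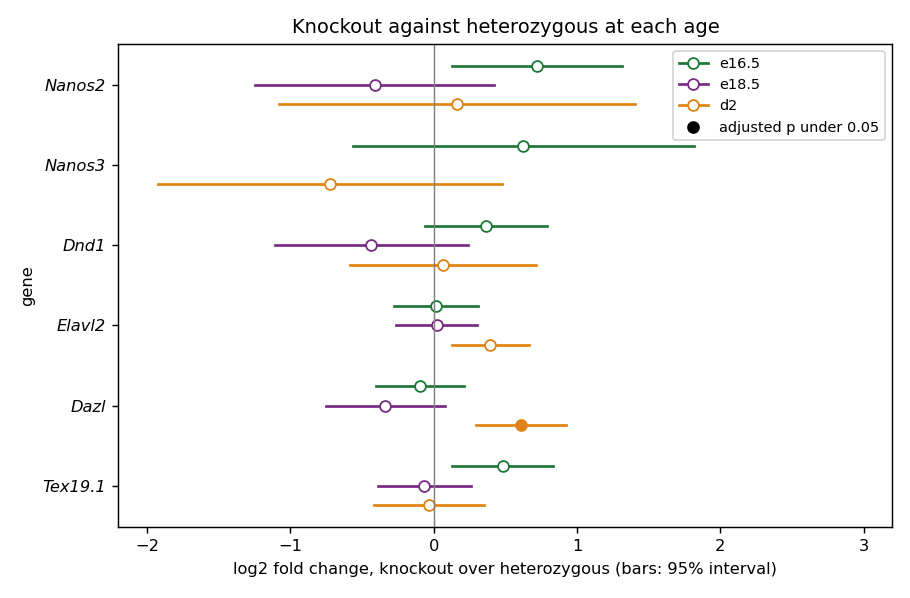
Log2 fold change of each gene in Tex15 knockout over heterozygous cells at e16.5, e18.5 and d2, as points with 95% intervals, filled where the adjusted p is under 0.05. Dazl at d2 (log2 fold change 0.61) is the one filled point, the intervals of Nanos2 and Tex19.1 at e16.5 and of Elavl2 at d2 also lie above 0, and Nanos3 at e18.5 was too low to be tested.

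Between ages more genes were called than between genotypes, among all genes and among the members. From e16.5 to e18.5, 5 of 6 members were called in knockout cells, where 35.1% of all 18619 genes tested were called, and 4 of 6 in heterozygous cells, where 17.8% were. From e18.5 to d2, 4 of 6 were called in knockout cells (55% of all genes) and 3 of 6 in heterozygous cells (51.2% of all genes), shares close to those of all genes. Both steps share the e18.5 libraries, and each age was counted into its own table, so age and table cannot be told apart. In the fit of all 20 libraries, the median log2 change of all genes was 0.09 in knockout and 0.04 in heterozygous cells for the first step, and -0.11 and -0.08 for the second.

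**Figure D3:**
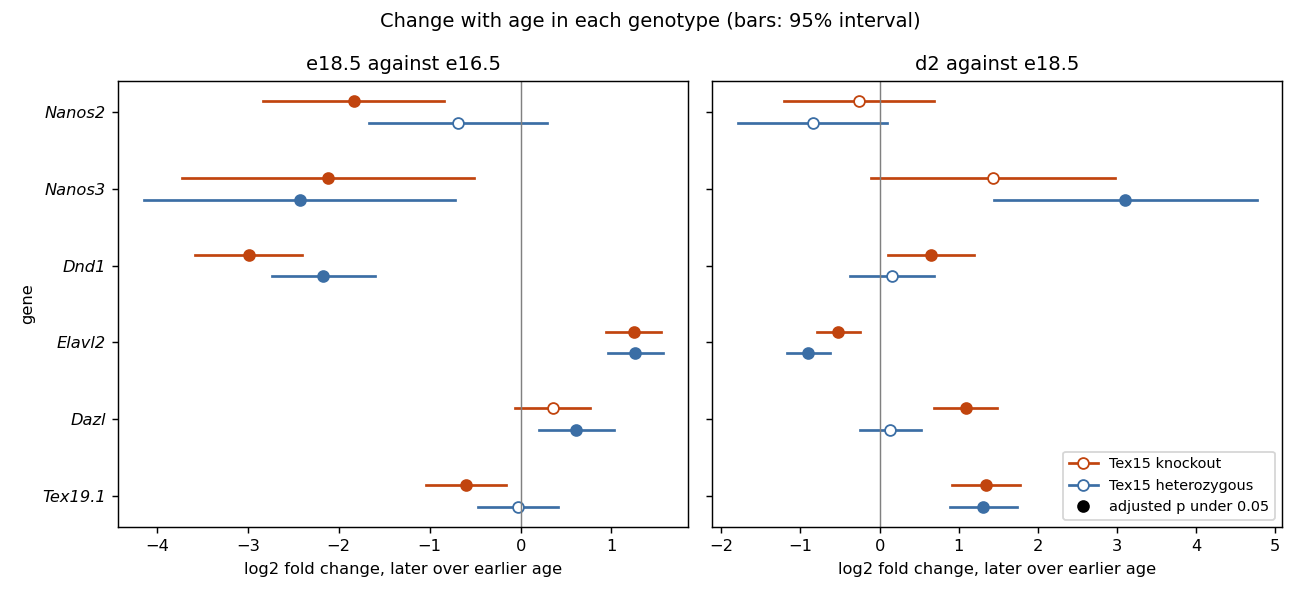
Log2 fold change of each gene at e18.5 against e16.5 (left) and at d2 against e18.5 (right), in Tex15 knockout cells (orange) and heterozygous cells (blue), as points with 95% intervals, filled where the adjusted p is under 0.05. Dnd1 and Nanos3 lie below 0 and Elavl2 above 0 in both genotypes at the first step, and Tex19.1 lies above 0 in both at the second.

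Dnd1, the RNA-binding partner of NANOS2, whose loss is known to deplete germ cells and to cause testis teratomas in some strains, fell between the embryonic ages in both genotypes. At e16.5 it lay at 49.5, 42.3 and 55.8 CPM in knockout libraries, against 41.0, 43.6 and 28.2 CPM in heterozygous ones. At e18.5 it lay at 5.03, 5.65 and 7.85 CPM in knockout and 6.92, 7.85 and 10.3 CPM in heterozygous libraries. At d2 it lay at 11.1, 10.04, 8.07 and 9.50 CPM in knockout and 10.8, 11.5, 9.34 and 5.18 CPM in heterozygous libraries. Every library of e16.5 was above every later one, and the genotypes overlapped at each age.
At e18.5 Dnd1 fell to 6.18 ± 1.48 CPM in knockout cells, against 49.2 ± 6.76 CPM at e16.5 (SD, n = 3 each), a log2 fold change of -2.99 ± 0.29 (SE; adjusted p = 6.2e-08, edgeR). In heterozygous cells it fell to 8.36 ± 1.75 CPM at e18.5, against 37.6 ± 8.25 CPM at e16.5 (log2 fold change -2.17 ± 0.28, adjusted p = 6.5e-06). The difference between the genotypes in this step, -0.82 on the log2 scale, was part of a test over ages that it did not pass (adjusted p = 0.518). At d2 Dnd1 rose slightly in knockout cells against e18.5 (log2 fold change 0.65, adjusted p = 0.0405), against a value of 0.15 in heterozygous cells. That call ended, at log2 fold changes of 0.58 to 0.63, under DESeq2 (adjusted p = 0.0554), with median-ratio factors (0.0682), without TMM factors (0.0656), with the stroma covariate (0.0794) and with only the 2 groups compared (0.112). It also ended without knockout e18.5 replicate 1 (0.156) or 2 (0.114) or knockout d2 replicate 1 (0.0911), 2 (0.0600) or 4 (0.0567). The knockout to heterozygous fold was 1.29 at e16.5 (95% interval 0.959 to 1.73). It was 0.740 at e18.5 (0.465 to 1.18) and 1.05 at d2 (0.667 to 1.64), and none passed. Dnd1 overlaps Wdr55 on the opposite strand, and 3.71% of its 50-base stretches also occur in Wdr55, so some reads may be shared where strand was not used in counting.

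Nanos2, which in the fetal testis is known to block meiosis and later to maintain spermatogonial stem cells, was counted at a low level, with means that were lower at each later age in both genotypes. The fall between the embryonic ages was called in knockout cells. At e16.5 it lay at 9.38, 12.9 and 15.1 CPM in knockout libraries, against 7.97, 6.04 and 8.37 CPM in heterozygous ones. At e18.5 it lay at 4.70, 2.49 and 3.23 CPM in knockout and 4.45, 4.32 and 5.11 CPM in heterozygous libraries. At d2 it lay at 6.45, 1.91, 0.651 and 2.52 CPM in knockout and 2.64, 1.89, 1.96 and 3.83 CPM in heterozygous libraries. Knockout libraries were the higher ones at e16.5 without overlap, whereas the genotypes overlapped at e18.5 and d2, where knockout replicates 1 and 3 of d2 were the extremes.
In knockout cells Nanos2 fell to 3.47 ± 1.13 CPM at e18.5, against 12.5 ± 2.90 CPM at e16.5 (SD, n = 3 each; log2 fold change -1.84 ± 0.49 SE, adjusted p = 0.00476, edgeR). In heterozygous cells it averaged 4.63 ± 0.422 CPM at e18.5 and 7.46 ± 1.24 CPM at e16.5, a log2 fold change of -0.69 that did not pass (adjusted p = 0.335). The call in knockout cells ended with the level of stroma markers as a covariate (log2 fold change -2.17, adjusted p = 0.0623). The difference between the genotypes was not past the test over ages (adjusted p = 0.648). At d2 against e18.5 the log2 values were -0.26 in knockout and -0.85 in heterozygous cells, neither past the threshold. The knockout to heterozygous fold was 1.65 at e16.5 (95% interval 1.09 to 2.48, adjusted p = 0.629), then 0.753 at e18.5 (0.422 to 1.34) and 1.12 at d2 (0.474 to 2.65).
These values rest on 443 counts in all knockout and 219 in all heterozygous libraries at e16.5, and on 110 and 104 at d2. An antisense gene, Gm45058, overlaps Nanos2 and holds 47.4% of its 50-base stretches, so reads of the pair cannot be told apart without strand.
At e16.5 the stroma marker sum was 253 to 296 CPM in knockout libraries, against 307 to 523 CPM in heterozygous ones, and the germ cell marker sum was 8948 to 9750 CPM against 7567 to 8876 CPM. Of the stroma markers 0 of 11 tested were higher in knockout cells, of the Sertoli markers 1 of 9 and of the Leydig markers 1 of 7, with median log2 values of -0.63, -0.50 and -1.33, while 10 of 10 germ cell markers were higher. An unadjusted p under 0.05 was found for 8 of the 11 stroma, 4 of the 9 Sertoli, 4 of the 7 Leydig and 2 of the 10 germ cell markers, beside 7.73% of all genes. With the stroma level as a covariate the e16.5 log2 fold change was 0.73 for Nanos2, against 0.72 without it, and 0.24 for Tex19.1, against 0.48 without it. The stroma sums did not overlap between genotypes, so that fit may not be able to tell stroma level from genotype. The covariate was a sum of log2(CPM + 1) over the stroma markers, whose own overlap was not examined. The part of the other markers was not tested.

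Nanos3, needed in mice for the survival of primordial germ cells, was the lowest member at both embryonic ages and had its lowest means at e18.5. At e16.5 it lay at 2.00, 3.14 and 3.80 CPM in knockout and at 2.88, 2.20 and 0.620 CPM in heterozygous libraries. At e18.5 the values were 0.811, 1.05 and 0.174 CPM in knockout libraries, from 10, 11 and 2 counts, against 0.0685, 0.864 and 0.0946 CPM in heterozygous libraries, from 1, 11 and 1 counts. At d2 they were 2.15, 1.91, 0.391 and 2.86 CPM in knockout and 3.14, 2.24, 2.54 and 4.28 CPM in heterozygous libraries. The genotypes overlapped at every age, and the libraries of each group overlapped those of its neighbours when groups were put in order of mean. Across age, the knockout libraries of e18.5 lay below all those of e16.5, and the heterozygous libraries of d2 above all those of e18.5. The other age steps overlapped.
The fall to e18.5 against e16.5 was called in knockout cells (log2 fold change -2.12 ± 0.78 SE, adjusted p = 0.0364, edgeR) and in heterozygous cells (-2.43 ± 0.83, adjusted p = 0.0427). Without TMM factors neither passed (log2 fold change -1.89, adjusted p = 0.0659 in knockout and -2.26, 0.0661 in heterozygous cells), and there the median of all genes was 0.32 and 0.17. With the stroma covariate they did not pass either (-1.48, adjusted p = 0.488, and -2.31, 0.0548), nor did the heterozygous value with only the 2 groups compared (-2.41, 0.0746). Without 1 library the call ended in knockout cells for knockout e16.5 replicates 2 (adjusted p = 0.0779) and 3 (0.0980) and knockout e18.5 replicates 1 (0.0683) and 3 (0.135). It ended in heterozygous cells for heterozygous e16.5 replicates 1 (0.184) and 2 (0.111), heterozygous e18.5 replicates 1 (0.161) and 3 (0.149), and knockout e16.5 replicates 2 (0.0520) and 3 (0.0516).
At d2 Nanos3 rose in heterozygous cells against e18.5, to 3.05 ± 0.902 CPM (SD, n = 4), against 0.342 ± 0.452 CPM (n = 3; log2 fold change 3.103 ± 0.81 SE, adjusted p = 0.00234). In knockout cells it averaged 1.83 ± 1.04 CPM at d2 and 0.680 ± 0.454 CPM at e18.5 (log2 fold change 1.43, adjusted p = 0.108), and without knockout d2 replicate 3 the adjusted p was 0.0474. The difference between genotypes was not past the test over ages (adjusted p = 0.623).
Knockout over heterozygous, the log2 fold change was 0.62 at e16.5 (adjusted p = 0.768) and -0.72 at d2 (adjusted p = 0.581). At e18.5 the summed counts were 23 in knockout and 13 in heterozygous libraries, a ratio of 1.96 per library size with a 95% exact binomial interval of 0.952 to 4.21 that covers counting error only. With no filter on low counts the e18.5 log2 fold change was 0.96 (adjusted p = 0.828). No gene of the annotation overlaps Nanos3 or shares a 50-base stretch with it.

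**Figure D4:**
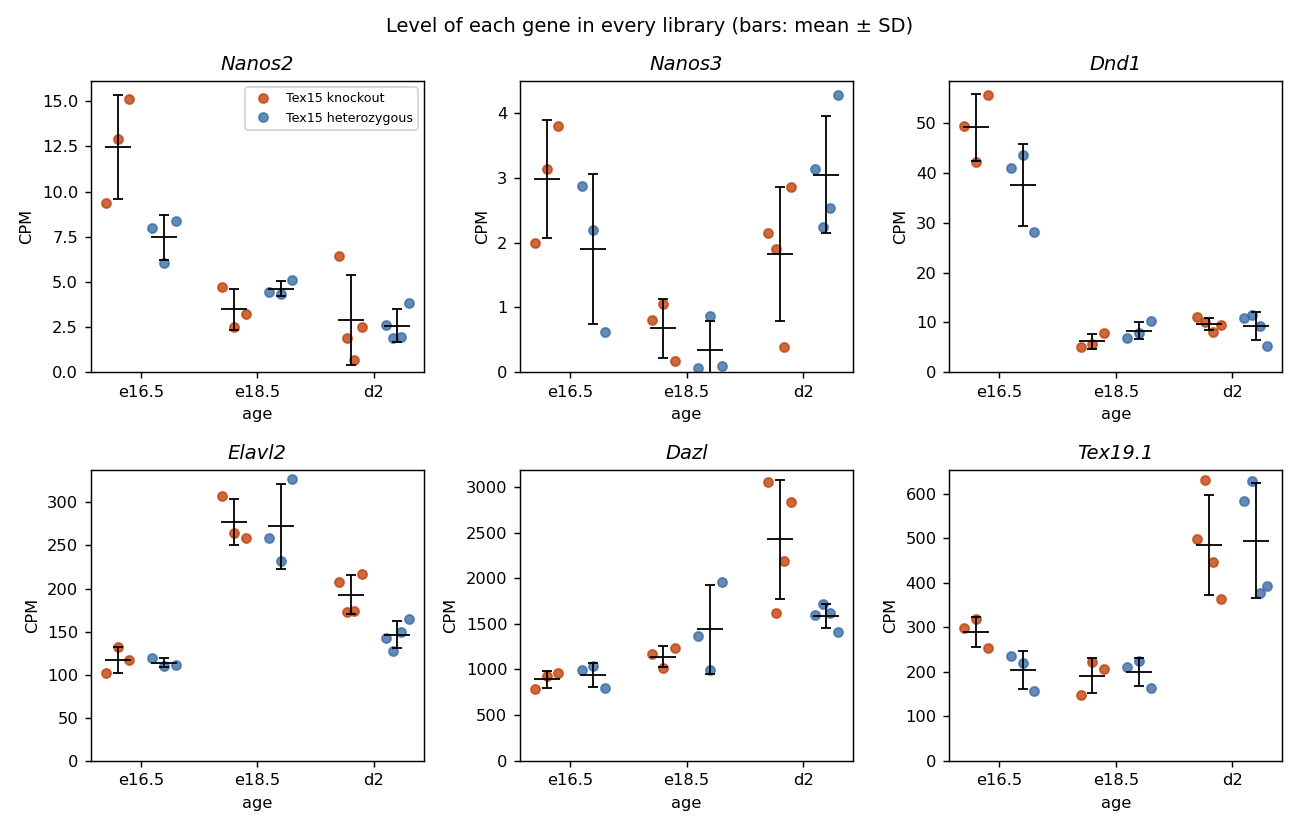
CPM of each gene in every library by age, with Tex15 knockout libraries (orange) left of heterozygous ones (blue), bars for the mean ± SD, and each vertical axis starting at 0. Dnd1 is at 28.2 CPM or more in each e16.5 library and at 11.5 CPM or less in each later one, and 3 of 4 knockout libraries of d2 lie above all heterozygous ones for Dazl.

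Dazl, which licenses germ cells for sexual differentiation and promotes translation of messages such as Sycp3, was the one member called between genotypes. At e16.5 it lay at 789, 926 and 964 CPM in knockout libraries, against 989, 1039 and 795 CPM in heterozygous ones. At e18.5 it lay at 1174, 1014 and 1236 CPM in knockout and 1362, 998 and 1961 CPM in heterozygous libraries. At d2 it lay at 3053, 1622, 2188 and 2835 CPM in knockout and 1592, 1722, 1613 and 1410.3 CPM in heterozygous libraries. The genotypes overlapped at both embryonic ages. At d2 knockout replicates 1, 3 and 4 were above all heterozygous libraries while replicate 2, the one with 102 CPM of Tex15, lay among them.
At d2 Dazl rose to 2424 ± 649 CPM in knockout cells, against 1584 ± 129 CPM in heterozygous cells (SD, n = 4 each). The log2 fold change was 0.61 ± 0.15 (SE), a fold of 1.52 with a 95% interval of 1.23 to 1.89 (adjusted p = 0.0349, edgeR). Without knockout replicate 2 the log2 fold change was 0.76 (adjusted p = 0.00149). The call ended without heterozygous replicate 1 (adjusted p = 0.102), 3 (0.0772) or 4 (0.0511) and without knockout replicate 1 (0.141), 3 (0.0680) or 4 (0.126), with log2 fold changes of 0.48 to 0.66. It held with DESeq2 (0.00830) and ended without TMM factors, where the log2 fold change was 0.52 and the median of all genes -0.11 (adjusted p = 0.0726), and with repeats in the library size (0.0566).
The stroma marker sum at d2 was 358 to 485 CPM in knockout and 240.2 to 327 CPM in heterozygous libraries, without overlap, and the germ cell marker sum was 3609 to 4049 CPM and 3269 to 3771 CPM, with overlap. With the stroma level as a covariate the log2 fold change of Dazl was 0.76 (adjusted p = 0.0137). The stroma sums of the genotypes stood apart, so that fit may not be able to tell stroma level from genotype. The overlap of the covariate itself, a sum of log2(CPM + 1), was not examined.
At e18.5 Dazl averaged 1141 ± 114 CPM in knockout and 1440.4 ± 486 CPM in heterozygous cells (SD, n = 3 each), a log2 fold change of -0.34 that did not pass (adjusted p = 0.575). With the stroma covariate the e18.5 value was -0.72 (adjusted p = 0.00331), at stroma sums of 416 to 438 CPM in knockout and 381 to 465 CPM in heterozygous libraries. At e16.5 the log2 fold change was -0.10 (adjusted p = 0.858).
The knockout effect at d2 exceeded that at e18.5 by 0.95 on the log2 scale, and the test that it was equal at all ages gave an adjusted p of 0.149. Of the 6 members 0 passed that test, where 0.87% of all genes did, and 1 had an unadjusted p under 0.05 (13% of all genes). DESeq2 called 0 as well (adjusted p = 0.0560 for Dazl). Without knockout d2 replicate 2 the adjusted p for Dazl was 0.0266, and without heterozygous e18.5 replicate 2 it was 0.0388.
Against e18.5, Dazl rose at d2 in knockout cells (log2 fold change 1.09 ± 0.19 SE, adjusted p = 5.3e-05) and had a value of 0.14 in heterozygous cells (adjusted p = 0.561). Against e16.5, it rose at e18.5 in heterozygous cells (0.61 ± 0.20, adjusted p = 0.0365) and had a value of 0.35 in knockout cells (adjusted p = 0.173), which passed without TMM factors (0.58, adjusted p = 0.0232). That call in heterozygous cells ended with voom (log2 fold change 0.35, adjusted p = 0.169), with no filter (0.61, 0.0525), with repeats in the library size (0.56, 0.0569) and without heterozygous e16.5 replicate 1 (0.0847), 2 (0.0605) or 3 (0.120) or heterozygous e18.5 replicate 1 (0.0636) or 3 (0.280).

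Elavl2, a member of the Hu family of RNA-binding proteins known from neurons and oocytes, peaked at e18.5 in both genotypes. At e16.5 it lay at 102, 132 and 117 CPM in knockout libraries, against 120, 110 and 111 CPM in heterozygous ones. At e18.5 it lay at 308, 264 and 259 CPM in knockout and 259, 232 and 327 CPM in heterozygous libraries. At d2 it lay at 207, 173, 174 and 217 CPM in knockout and 142, 127, 150 and 165 CPM in heterozygous libraries. All e18.5 libraries were above all others, and at d2 all knockout libraries were above all heterozygous ones.
At e18.5 Elavl2 rose to 277 ± 26.8 CPM in knockout cells, against 117 ± 14.9 CPM at e16.5 (SD, n = 3 each; log2 fold change 1.24 ± 0.15 SE, adjusted p = 8.4e-07, edgeR). In heterozygous cells it rose to 272 ± 49.0 CPM at e18.5, against 114 ± 5.27 CPM at e16.5 (log2 fold change 1.26 ± 0.15, adjusted p = 2.6e-06). At d2 it fell in knockout cells, to 193 ± 22.6 CPM (n = 4; log2 fold change against e18.5 -0.52 ± 0.13, adjusted p = 0.00192), and in heterozygous cells, to 146 ± 15.7 CPM (n = 4; -0.90 ± 0.13, adjusted p = 4.6e-06).
At d2 the knockout to heterozygous fold was 1.32 (95% interval 1.09 to 1.58), which did not pass (adjusted p = 0.110), and without knockout d2 replicate 2 the log2 fold change was 0.44 (adjusted p = 0.0779). At both embryonic ages it was 1.01, with an interval of 0.825 to 1.24 for e16.5 and 0.835 to 1.23 for e18.5. The test over ages gave an adjusted p of 0.479. Elavl2 shares no 50-base stretch with another annotated gene, and neither does Dazl.

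Tex19.1, which holds back retrotransposons in germ cells and placenta, was highest at d2. At e16.5 it lay at 298, 318 and 253 CPM in knockout libraries, against 237, 219 and 157 CPM in heterozygous ones. At e18.5 it lay at 147, 221 and 206 CPM in knockout and 212, 224 and 163 CPM in heterozygous libraries. At d2 it lay at 499, 630.0, 447 and 364 CPM in knockout and 584, 628, 376 and 392 CPM in heterozygous libraries. All d2 libraries were above all embryonic ones, and the genotypes stood apart at e16.5 alone, with knockout libraries the higher.
At d2 Tex19.1 rose to 485 ± 112 CPM in knockout cells (SD, n = 4), against 191 ± 39.1 CPM at e18.5 (n = 3; log2 fold change 1.34 ± 0.21 SE, adjusted p = 8.9e-06, edgeR). In heterozygous cells it rose to 495 ± 129 CPM at d2 (n = 4), against 199 ± 32.3 CPM at e18.5 (n = 3; log2 fold change 1.31 ± 0.21, adjusted p = 1.5e-05). Between the embryonic ages it fell in knockout cells, to 191 ± 39.1 CPM at e18.5, against 289 ± 33.2 CPM at e16.5 (log2 fold change -0.60 ± 0.21, adjusted p = 0.0324), and had a value of -0.03 in heterozygous cells. The fall in knockout cells was not called without TMM factors (adjusted p = 0.197), with the stroma covariate (0.574), or without knockout e16.5 replicate 1 (0.0612) or 2 (0.103) or knockout e18.5 replicate 1 (0.135).
At e16.5 the knockout to heterozygous fold was 1.40 (95% interval 1.09 to 1.78, adjusted p = 0.629). It was 0.956 at e18.5 (0.764 to 1.20) and 0.978 at d2 (0.750 to 1.28), and the test over ages gave an adjusted p of 0.523. Tex19.1 shares 2.67% of its 50-base stretches with its paralog Tex19.2.

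Among the partners of NANOS, DND1 and DAZL and the deadenylation machinery, 0 of 30 genes tested were called in knockout against heterozygous cells at either embryonic age. Of all genes 0.0061% were called at e16.5 and 2.33% at e18.5. At e16.5 3 had an unadjusted p under 0.05 (7.73% of all genes) and at e18.5 2 did (11.3% of all genes), and DESeq2 called 0. At d2 8 of 30 had an unadjusted p under 0.05 (16.2% of all genes). The median log2 fold change was 0.10, where that of all genes was -0.02. Of the 30, 1 rose (2.03% of all genes) and 0 fell. The gene was Xrn1, the 5′ to 3′ exonuclease that degrades decapped messages. It averaged 221 ± 34.3 CPM in knockout and 152 ± 10.97 CPM in heterozygous cells (SD, n = 4 each; log2 fold change 0.54 ± 0.13 SE, adjusted p = 0.0279, edgeR). The Xrn1 call ended in 6 of the 8 fits that left out 1 d2 library (adjusted p of up to 0.121), those without heterozygous replicates 1, 2 and 4 and knockout replicates 1, 3 and 4. DESeq2 called 3 of the list at d2, Xrn1, Cnot6 and Pum2.
Among 29 other germ cell RNA-binding genes tested at d2, 8 had an unadjusted p under 0.05 (16.2% of all genes). Of these 29, 1 rose (2.03% of all genes) and 0 fell, with a median of 0.15 (all genes -0.02). Boll, a DAZ family member related to Dazl, averaged 50.8 ± 5.58 CPM in knockout and 24.2 ± 4.44 CPM in heterozygous cells (SD, n = 4 each; log2 fold change 1.07 ± 0.19 SE, adjusted p = 0.00286). Its knockout effect also differed between ages (adjusted p = 0.0378), by 1.00 on the log2 scale between d2 and e18.5. At e16.5 0 of 29 were called, with 1 at an unadjusted p under 0.05 (7.73% of all genes) and 0 called by DESeq2. At e18.5 0 of 30 were called, with 3 at an unadjusted p under 0.05 (11.3% of all genes), and DESeq2 called 1, Cpeb3. At d2 DESeq2 called 2, Boll and Fxr1.

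A list of meiotic and fate genes was read next, whose dependence on these regulators was not tested. Of its 24 genes tested at d2, 10 had an unadjusted p under 0.05 (16.2% of all genes). Log2 fold changes of the 24 ran from -1.10 to 1.07, with a median of 0.0005 (all genes -0.02). In knockout cells 2 of 24 rose (2.03% of all genes) and 0 fell. Sycp1 and Sycp3 encode parts of the synaptonemal complex that joins chromosomes in meiosis. Sycp1 averaged 454 ± 129 CPM in knockout and 220.2 ± 30.6 CPM in heterozygous cells (SD, n = 4 each; log2 fold change 1.04 ± 0.17 SE, adjusted p = 0.00222, edgeR). Sycp3 averaged 217 ± 27.6 CPM in knockout and 140 ± 5.74 CPM in heterozygous cells (log2 fold change 0.63 ± 0.12, adjusted p = 0.00569). Both stayed called without any 1 of the 8 d2 libraries, as did Boll, and DESeq2 called Sycp2 and Hormad1 as well.
At e18.5 1 of 25 rose and 0 fell (2.33% of all genes called), and 6 had an unadjusted p under 0.05 (11.3% of all genes). Kit, the receptor of stem cell factor, averaged 125 ± 10.9 CPM in knockout and 86.9 ± 0.777 CPM in heterozygous cells (SD, n = 3 each; log2 fold change 0.53 ± 0.13 SE, adjusted p = 0.0389). The Kit call ended in 5 of the 6 fits that left out 1 e18.5 library (adjusted p of 0.0560 to 0.184), and held only without heterozygous replicate 3. It also ended with the stroma covariate (log2 fold change 0.52, adjusted p = 0.173), where calls over all genes numbered 190 against 422, with all ages in 1 fit (0.53, adjusted p = 0.309) and with repeats in the library size (0.52, adjusted p = 0.0513). At e16.5 0 of 25 were called, with 2 at an unadjusted p under 0.05 (7.73% of all genes) and 0 called by DESeq2.
At e18.5 the macrophage and white blood marker sum was 89.8 to 109 CPM in knockout libraries, against 31.0 to 42.4 CPM in heterozygous ones, and 2 of the 5 markers tested, Mrc1 and Adgre1, rose. Their part in the e18.5 values was not tested.

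Among fate signals and receptors 0 of 21 tested were called at each age, with 4 at an unadjusted p under 0.05 for e16.5, 1 for e18.5 and 2 for d2. Of all genes 7.73%, 11.3% and 16.2% had such a p at these ages. DESeq2 called 1, Inhba at e16.5. The most abundant were Smad2, a carrier of activin and Nodal signals, and Bmpr1a, a bone morphogenetic protein receptor. Smad2 averaged 270 ± 29.9 CPM in knockout and 240 ± 40.9 CPM in heterozygous cells at e16.5 (SD, n = 3 each). It averaged 227 ± 25.4 and 194 ± 10.1 CPM at e18.5 and 268 ± 23.2 and 252 ± 32.6 CPM at d2 (n = 4 each). Bmpr1a averaged 167 ± 10.7 CPM in knockout and 175 ± 33.5 CPM in heterozygous cells at e16.5. It averaged 160 ± 13.9 and 183 ± 18.8 CPM at e18.5 and 365 ± 56.0 and 258 ± 60.8 CPM at d2.

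**Figure D5:**
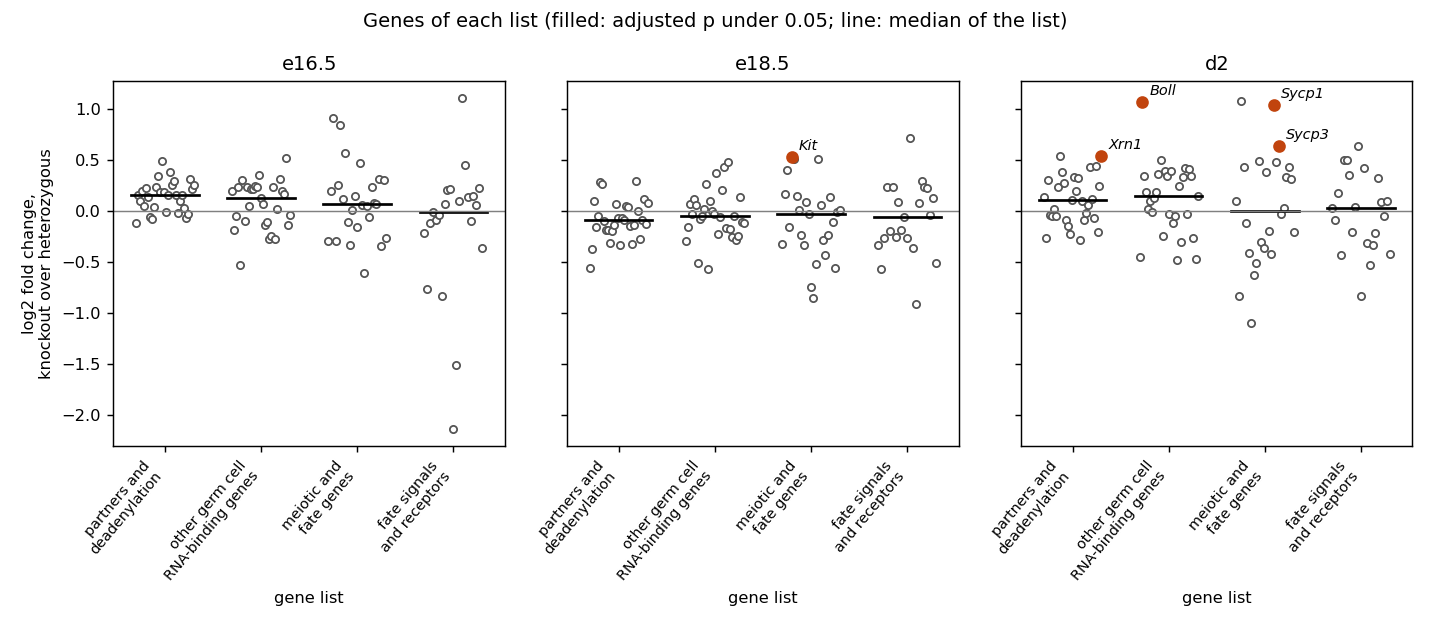
Log2 fold change in Tex15 knockout over heterozygous cells for each gene of 4 lists at e16.5, e18.5 and d2, with filled points where the adjusted p is under 0.05 and a line at the list's median. Kit at e18.5 and Xrn1, Boll, Sycp1 and Sycp3 at d2 are the filled points, all above 0.

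The lists were also counted over age, beside a share of all genes called of 35.1% in knockout and 17.8% in heterozygous cells between e16.5 and e18.5. Of 29 partner and deadenylation genes 0 rose and 13 fell in knockout cells, and 0 rose and 8 fell in heterozygous cells. Dazap1, a DAZ-associated RNA-binding protein, fell to 11.7 ± 0.593 CPM at e18.5, against 46.9 ± 3.12 CPM at e16.5, in knockout cells, and to 11.2 ± 1.03 against 33.0 ± 4.42 CPM in heterozygous cells (SD, n = 3 each). Edc4, a scaffold of the decapping complex, fell to 77.9 ± 13.8 against 158 ± 7.51 CPM in knockout cells and to 75.9 ± 5.40 against 127 ± 12.8 CPM in heterozygous cells. Of 29 other RNA-binding genes 4 rose and 11 fell in knockout cells, and 4 rose and 5 fell in heterozygous cells. Cpeb2, a cytoplasmic polyadenylation factor, rose to 442 ± 91.8 CPM at e18.5, against 56.0 ± 13.0 CPM at e16.5, in knockout cells, and to 425 ± 35.5 against 79.8 ± 38.2 CPM in heterozygous cells. Tdrd5, a tudor protein of the piRNA pathway, fell in both (log2 fold changes of -1.33 and -0.94).
Of 25 meiotic and fate genes 1 rose and 9 fell in knockout cells, and 3 rose and 6 fell in heterozygous cells. Tex14, needed for the bridges between germ cells, fell to 375 ± 11.1 CPM at e18.5, against 1081 ± 163 CPM at e16.5, in knockout cells, and to 377 ± 32.5 against 863 ± 243 CPM in heterozygous cells. Among the genes of smallest p, Sycp3 fell in knockout cells (log2 fold change -1.43, adjusted p = 1.6e-05) and Piwil4, a nuclear piRNA effector, fell in heterozygous cells (-1.26, adjusted p = 0.000231). The genotypes differed in this step by -0.69 for Sycp3 and 0.0075 for Piwil4 on the log2 scale (knockout less heterozygous). Each thus had a value below 0 in both genotypes, and neither passed the test over ages (adjusted p = 0.121 and 0.475). Of 21 fate signals and receptors 4 rose and 4 fell in knockout cells, and 0 rose and 1 fell in heterozygous cells, where the gene was Fgfr2, a fibroblast growth factor receptor. Fgfr2 fell to 6.54 ± 0.573 CPM at e18.5, against 31.8 ± 9.43 CPM at e16.5, in knockout cells, and to 7.47 ± 0.994 against 27.1 ± 4.97 CPM in heterozygous cells. Rara, a retinoic acid receptor, fell in knockout cells (log2 fold change -0.88, adjusted p = 0.00330), and with the stroma covariate the value was -0.81 (adjusted p = 0.145), in a fit that called 999 genes against 6544. For Rara the genotypes differed in this step by -0.40 (knockout less heterozygous), so its value was below 0 in both. It did not pass the test over ages (adjusted p = 0.339).
The germ cell markers themselves fell at this step, 10 of 10 in knockout and 8 of 10 in heterozygous cells, and their part in these changes was not tested. Stroma markers rose for 6 of 12 in knockout cells and for 1 of 12 in heterozygous cells, where 2 fell.

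Between e18.5 and d2, 55% of all genes were called in knockout and 51.2% in heterozygous cells, beside which the counts of the lists stand. Of 29 partner and deadenylation genes 16 rose and 4 fell in knockout cells, and 9 rose and 4 fell in heterozygous cells. Cnot3, a subunit of the CCR4-NOT deadenylase, fell to 89.1 ± 7.23 CPM at d2 (SD, n = 4), against 348 ± 62.3 CPM at e18.5 (n = 3), in knockout cells, and to 92.1 ± 9.25 against 290 ± 8.97 CPM in heterozygous cells. Cnot2, of the same complex, fell in knockout cells (log2 fold change -0.98, adjusted p = 3.6e-08) and Pabpc1, the poly(A)-binding protein, fell in heterozygous cells (-1.12, adjusted p = 6.2e-08). The genotypes differed in this step by -0.27 for Cnot2 and 0.25 for Pabpc1 on the log2 scale (knockout less heterozygous). Each thus had a value below 0 in both genotypes, and neither passed the test over ages (adjusted p = 0.593 and 0.622). Of 29 other RNA-binding genes 13 rose and 7 fell in knockout cells, and 7 rose and 10 fell in heterozygous cells. Mael, a piRNA pathway protein, and Ddx4 stand both on this list and among the germ cell markers. Mael fell to 580.2 ± 95.6 against 1312 ± 113 CPM in knockout cells and to 627 ± 65.3 against 1529 ± 175 CPM in heterozygous cells. Ybx2, a germ cell cold shock domain protein that binds stored messages, fell in both (log2 fold changes of -1.90 and -1.54).
Of 25 meiotic and fate genes 12 rose and 9 fell in knockout cells, and 10 rose and 9 fell in heterozygous cells. Zbtb16, a stem cell transcription factor, rose to 125 ± 23.3 CPM at d2, against 21.1 ± 4.51 CPM at e18.5, in knockout cells, and to 144 ± 20.03 against 20.95 ± 2.31 CPM in heterozygous cells. Piwil4 fell in knockout cells (log2 fold change -2.104) and Sohlh2, a regulator of spermatogonia, rose in heterozygous cells (2.06). The genotypes differed in this step by -0.55 for Piwil4 and 0.38 for Sohlh2 on the log2 scale (knockout less heterozygous). Piwil4 thus had values below 0, and Sohlh2 above 0, in both genotypes. Neither passed the test over ages (adjusted p = 0.475 and 0.668). Of 21 fate signals and receptors 7 rose and 6 fell in knockout cells, and 6 rose and 5 fell in heterozygous cells. Acvr2b, an activin receptor, fell to 7.16 ± 1.76 CPM at d2, against 114 ± 23.6 CPM at e18.5, in knockout cells, and to 9.63 ± 0.989 against 97.0 ± 16.3 CPM in heterozygous cells. Smad3, which carries activin signals to the nucleus, rose to 47.7 ± 8.11 against 6.75 ± 2.56 CPM in knockout cells and to 49.3 ± 6.21 against 6.97 ± 2.21 CPM in heterozygous cells. Germ cell markers fell for 6 of 10 and rose for 2 of 10 in knockout cells, and fell for 7 of 10 and rose for 0 in heterozygous cells.

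The members differed among themselves in their course. Put in order by group mean, Dnd1 and Nanos2 were highest at e16.5, Elavl2 at e18.5, and Dazl and Tex19.1 at d2. For Nanos3 and Dazl all neighbouring groups in that order, of either genotype or age, overlapped. Within a genotype, Nanos3 stood apart between e18.5 and e16.5 in knockout cells and between d2 and e18.5 in heterozygous cells. Dazl did so at both age steps in knockout cells. The other age steps of both genes overlapped. For Nanos2 the knockout e16.5, heterozygous e16.5 and heterozygous e18.5 groups stood apart from each other, and for Dnd1 both e16.5 groups stood apart from the rest. For Elavl2 the e18.5 groups, knockout d2 and heterozygous d2 stood apart in turn, and for Tex19.1 the d2 groups, knockout e16.5 and the other embryonic groups did.
Across the 20 libraries, log2(CPM + 1) of Nanos2 and Dnd1 had a Pearson correlation of 0.74, and that of Dnd1 and Elavl2 was -0.78. With group means taken out these were -0.04 and -0.18, while Elavl2 and Dazl had 0.62 and Elavl2 and Tex19.1 -0.58. The points share their libraries and depth, and 6 groups of 3 or 4 libraries make up the 20.
By the same measure over the 15295 genes with a mean of at least 1 CPM, the genes most like each member were Casp9 (0.89), Zfp773 and Acot13 (0.88 each) for Nanos2. For Nanos3 they were Kif16b (0.91), Dbndd2 (0.88) and Ipo8 (0.85). For Dnd1 they were Tomm34 (0.97), Prkab2 and Cirh1a (0.96 each). For Elavl2 they were Rb1 (0.93), Sox30 (0.92) and Lonrf3 (0.91), and for Dazl they were Mycbp, Vapa (0.96 each) and Cd164 (0.94). For Tex19.1 they were Chmp1a, Zcrb1 (0.96 each) and Nme2 (0.95). With so many genes and 6 groups, high values are a description of the course over age.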

How the data were processed

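The deposited tables hold raw counts per gene symbol and repeat name for each library, not normalized. Per the submitters' processing notes the tools were STAR, Bowtie, featureCounts and edgeR and the build mm9, with no versions or roles given. Strand use and the handling of reads with several places are not given in the sources used here. Libraries were made from total RNA with Ovation kits, per the labels' protocols. The 1217 repeat names were set apart and stayed out of library sizes.

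Each age was tested alone with edgeR 4.0.16 (R 4.3.3): filterByExpr (10 counts, 15 in total), TMM factors, robust quasi-likelihood F test, Benjamini-Hochberg adjustment over all genes, threshold 0.05. Changes with age, and the test that the knockout effect is equal at all ages, came from 1 fit of all 20 libraries. Printed CPM use the TMM factors of that fit. Only the knockout fits of each age were tested on simulated data, with changes larger than those of the members and in genes of higher counts. That says nothing of the fit of all libraries, or of small changes and low counts. No pair of libraries within a group was a duplicate, and pairs across groups were not checked. Named genes are all members, each called gene of the 4 lists in knockout comparisons, up to 2 per list and age step by smallest p, the 2 most abundant where none was called, and the 3 most correlated per member. The members, lists and tests were chosen with earlier results of these data known. Alternatives were DESeq2 1.42.0, median-ratio or no factors, repeats in the library size, no filter or a 1 CPM filter, voom (limma 3.58.1), a replicate block, a stroma covariate, other groups in the fit and leaving out each library. The stroma covariate was the sum of log2(CPM + 1) over the stroma markers, not their summed CPM. Each age holds 3 or 4 libraries per genotype, which limits precision.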

Additional observations from a re-analysis of the deposited data

How the results depend on the processing

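With the other settings, most member values kept their direction and their side of the threshold. The number of members called in knockout against heterozygous cells at d2 was 0 without TMM factors, with repeats in the library size and with the replicate block, against 1 in the tests above. With the stroma covariate it was 1 at e18.5, where it was 0 above, and 2 in knockout cells at e18.5 against e16.5, where it was 5 above, in a fit that called 999 genes in all, against 6544. Without 1 library the count was 0 to 1 at d2, 0 to 1 for the test over ages, 3 to 5 in knockout cells and 2 to 4 in heterozygous cells for e18.5 against e16.5, and 3 to 5 in knockout cells for d2 against e18.5. The cause was not tested, beyond there being fewer libraries in the fits that leave 1 out. The replicate numbers of the labels were not shown to pair the libraries, since the correlation of same-numbered libraries' deviations from their group means ran from -0.30 to 0.12. With the numbers as a replicate block, 235 genes were called at d2, against 430, and Dazl had a log2 fold change of 0.57 (adjusted p = 0.0845). The rise of Dazl in heterozygous cells at e18.5 against e16.5 was then 0.58 (adjusted p = 0.0542).

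Values near 0 changed sign. Without TMM factors the log2 fold change was -0.067 for Elavl2 at e16.5 and -0.022 for Dnd1 at d2 in knockout against heterozygous cells, and 0.11 for Tex19.1 in heterozygous cells at e18.5 against e16.5. With the stroma covariate these were -0.011 for Elavl2 at e16.5, -0.19 for Elavl2 and 0.16 for Tex19.1 at e18.5, -0.23 for Nanos2 at d2 and 0.00013 for Tex19.1 in heterozygous cells at e18.5 against e16.5. With the replicate block Nanos2 at d2 was -0.16. Without 1 library, knockout against heterozygous, Elavl2 ran from -0.074 to 0.11 at e16.5 and from -0.084 to 0.18 at e18.5, Tex19.1 from -0.19 to 0.096 at e18.5 and from -0.19 to 0.10 at d2, Nanos2 from -0.59 to 0.49 and Dnd1 from -0.12 to 0.19 at d2. With age, Tex19.1 ran from -0.20 to 0.098 in heterozygous cells (e18.5 against e16.5), Nanos2 from -1.002 to 0.061 in knockout cells and Dazl from -0.081 to 0.42 in heterozygous cells (d2 against e18.5). Over all genes DESeq2 called 22 at e16.5, against 1, and 768 at d2, against 430, where the fit of all ages called 770. At e18.5 190 were called with the stroma covariate and 152 in the fit of all ages, against 422. Nanos3 and Nanos2, with the fewest counts, have the widest intervals.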
